A study of Mus musculus with 7 samples.

Results

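Antisense RNA, transcribed from the strand opposite an annotated gene, was examined among the RNA brought down by an EZH2 antibody in mouse embryonic stem cells. Of the 10043 peaks on the submitters' short list, 1375 were antisense peaks: most of their bases lay outside every GENCODE M21 gene on their own strand, and at least some lay over a gene on the other strand. The count table held 303889 features in all. The remaining short-list peaks lay mostly in introns (5453), between genes (2554) or in exons (661) of their own strand.

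RNA immunoprecipitation followed by sequencing (RIP-seq) was done in 7 cultures of a male CAST/B6 embryonic stem cell line with the Rosa26-RMCE locus, a site into which cassettes can be exchanged. The wild-type group (WT) was the parent line with clones 20 and 44, the EZH2 KO group was clones 12 and 19, and the SAFB DKO group, lacking Safb and its paralog Safb2, was clones 13 and 4. All groups, WT included, grew in 15% serum at 37 °C and 5% CO2 and had received doxycycline for 3 days, and each library was made from 9 µL of precipitated RNA with 1 µL of ERCC spike-in after ribosomal RNA depletion. Each knockout is represented by 2 clones, so a clone's own history and its genotype rest on the same cells. By the series title the antibody, raised against human EZH2, also binds SAFB.

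EZH2 is the catalytic subunit of Polycomb repressive complex 2, which methylates histone H3 at lysine 27 and has been studied at length for binding to RNA. SAFB and SAFB2 are nuclear scaffold attachment factors that bind RNA through an RNA recognition motif and are known for binding purine-rich RNA. Antisense transcripts arise from promoters inside or near genes, and from transcription that runs past the end of one gene into a neighbour that points the other way.

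The features had been counted on their strand, from 19024702 to 21832539 counts in WT, 7050832 and 8353603 in EZH2 KO against 15812517 and 18738499 in SAFB DKO. Levels below are CPM, counts scaled to library size as edgeR does, and fold changes are log2 values. Their standard error (SE) is approximate: the size of the fold change divided by the square root of edgeR's F statistic. Ezh2 had 165 to 202 CPM in WT and 0.157 and 2.26 in EZH2 KO. Safb had 117 to 245 CPM in WT, 284 and 314 in EZH2 KO against 0.592 and 1.41 in SAFB DKO. Safb2 had 124 to 302 CPM in WT, 615 and 749 in EZH2 KO against 0.807 and 2.92 in SAFB DKO. For both genes WT replicate 3 was the lowest WT library and EZH2 KO lay above WT. Whether this bears on the peaks in EZH2 KO was not tested. Of 10 embryonic stem cell markers 9 had counts, summing to 1411 to 1447 CPM in WT, 1030 and 1179 in EZH2 KO against 1978 and 2056 in SAFB DKO, and Sox2 had none in features that belong to it alone. Summed markers of fibroblasts, neural cells, endoderm and trophoblast reached at most 40.9 CPM in any library. Counts were found for 3 of 7 fibroblast markers (none for Col1a2, Postn, Lum and Dcn), 2 of 5 neural (none for Sox1, Tubb3 and Neurod1), 4 of 5 endoderm (none for Sox17) and 4 of 5 trophoblast markers (none for Elf5). The column names of the EZH2 KO libraries follow a pattern of their own. Whether they were sequenced with the others is not given in the sources used here, and any such difference could not be told apart from genotype.

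The antisense peaks were short-listed on WT: the 3 WT libraries together gave each of them 93 reads or more, and gave at most 92 to a filtered peak left off the short list. Of the members 80 had under 100 such reads. A comparison with WT therefore favours falls, while SAFB DKO against EZH2 KO uses none of the WT libraries for its levels. The member nearest the limit of the antisense rule had 49.8% of its bases in a gene of its own strand, and the nearest short-list peak beyond it had 51.1%. Only 50 members touched a gene of their own strand at all.

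The peaks ran from 75 to 4523 bases, with a median of 1148, and were split evenly between strands, 685 on plus and 690 on minus. They faced 1022 genes, and 52 of them faced more than 1. Protein-coding genes faced 1174 members (85.4%), long intergenic noncoding RNAs 91 and annotated antisense RNAs 35. Most, 1253, lay wholly within the gene they faced, and 705 touched none of its exons. By position, 89 lay within 2 kb of the facing gene's start, 207 within 2 kb of its end and 1079 in the body between. Peaks on a strand within 10 kb of each other formed 1080 loci, of which 207 held at least 2 peaks and 502 peaks together.

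Sequences are shown for those of the most abundant and the least changed named peaks with a readable stretch of at least 150 bases. The named peaks with the steepest falls came under the same rule, but none had such a stretch. No mm10 genome was used here, so letters were taken from the GENCODE M21 transcript that covers the site on either strand and were read on the peak's strand, 5′ to 3′. Each is the centre of the longest stretch outside annotated untranslated regions. Capitals mark GAAGA and AGAAG, overlapping copies included. The sites, all in mm10, are chr19:5801674-5801973 (plus strand, over Malat1), chr8:43161778-43162077 (minus, over the pseudogene Gm6284), chr8:84922373-84922672 (plus, in Mast1), chr16:20511293-20511592 (plus, over Gm16618), chr2:98662252-98662470 (minus, over Gm10801) and chr2:98666738-98667037 (plus, over Gm10800).

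Malat1-facing: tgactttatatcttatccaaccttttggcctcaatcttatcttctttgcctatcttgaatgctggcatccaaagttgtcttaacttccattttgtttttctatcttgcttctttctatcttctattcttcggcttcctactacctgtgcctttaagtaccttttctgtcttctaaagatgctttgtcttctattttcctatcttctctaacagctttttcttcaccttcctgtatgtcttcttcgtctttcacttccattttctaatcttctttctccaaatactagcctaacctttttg

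Gm6284-facing: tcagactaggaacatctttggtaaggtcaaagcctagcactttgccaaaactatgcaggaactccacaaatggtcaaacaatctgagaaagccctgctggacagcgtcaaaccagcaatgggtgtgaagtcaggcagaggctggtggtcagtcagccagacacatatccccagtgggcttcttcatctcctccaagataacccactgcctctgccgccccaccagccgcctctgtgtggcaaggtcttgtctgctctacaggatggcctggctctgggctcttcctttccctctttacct

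Mast1-facing: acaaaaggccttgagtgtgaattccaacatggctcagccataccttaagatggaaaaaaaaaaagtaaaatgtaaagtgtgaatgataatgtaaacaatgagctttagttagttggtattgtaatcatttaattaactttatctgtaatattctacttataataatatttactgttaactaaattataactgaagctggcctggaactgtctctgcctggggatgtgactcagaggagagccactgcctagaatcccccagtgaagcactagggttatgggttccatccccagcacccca

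Gm16618-facing: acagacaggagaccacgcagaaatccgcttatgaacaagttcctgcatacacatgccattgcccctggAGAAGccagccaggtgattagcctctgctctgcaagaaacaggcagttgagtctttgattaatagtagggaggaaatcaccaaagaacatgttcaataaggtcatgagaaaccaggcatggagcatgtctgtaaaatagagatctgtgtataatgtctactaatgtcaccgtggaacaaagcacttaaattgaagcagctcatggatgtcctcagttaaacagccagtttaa

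Gm10801-facing: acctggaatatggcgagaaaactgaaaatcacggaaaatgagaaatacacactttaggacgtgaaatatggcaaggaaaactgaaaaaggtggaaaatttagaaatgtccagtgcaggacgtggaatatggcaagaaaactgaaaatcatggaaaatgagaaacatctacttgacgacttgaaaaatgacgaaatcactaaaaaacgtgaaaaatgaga

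Gm10800-facing: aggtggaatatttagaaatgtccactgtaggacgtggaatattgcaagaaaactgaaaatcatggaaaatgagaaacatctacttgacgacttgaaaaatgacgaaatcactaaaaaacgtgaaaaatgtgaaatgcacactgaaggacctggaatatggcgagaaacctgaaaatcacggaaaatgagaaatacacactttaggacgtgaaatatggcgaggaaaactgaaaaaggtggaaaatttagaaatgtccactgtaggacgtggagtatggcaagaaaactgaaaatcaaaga

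Purines made up 25.3% of the Malat1-facing stretch, 46.3% of the Gm6284-facing, 53.0% of the Mast1-facing and 56.3% of the Gm16618-facing stretch. The Malat1-facing stretch held GAAGA 0 times on the peak's strand and 10 times on the other strand, which is the Malat1 strand. The Gm10801- and Gm10800-facing stretches were 69.4% and 67.7% purine but held neither motif. Their letters repeat: 75% of the 20-base words readable in the Gm10801-facing peak, on either strand, also occur in the peaks facing Gm10800 or Gm21738, and 49.1% of those in the Gm10800-facing peak occur in the others. Reads from such copies could be split or shared between them, or lost if reads without a unique place were filtered out, so their counts are uncertain.

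A further pair of stretches was picked for its number of GAAGA copies, after the sequences had been counted. They lie at chr1:66766937-66767236 (plus strand, in Kansl1l, a gene related to a subunit of a histone acetyltransferase complex) and chr17:79627789-79628088 (minus strand, in Rmdn2).

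Kansl1l-facing: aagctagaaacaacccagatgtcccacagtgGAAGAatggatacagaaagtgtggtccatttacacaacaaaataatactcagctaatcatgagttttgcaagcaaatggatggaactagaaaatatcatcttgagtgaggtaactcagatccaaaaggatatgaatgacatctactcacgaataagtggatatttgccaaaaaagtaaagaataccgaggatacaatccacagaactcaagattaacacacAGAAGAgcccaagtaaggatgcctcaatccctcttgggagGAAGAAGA

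Rmdn2-facing: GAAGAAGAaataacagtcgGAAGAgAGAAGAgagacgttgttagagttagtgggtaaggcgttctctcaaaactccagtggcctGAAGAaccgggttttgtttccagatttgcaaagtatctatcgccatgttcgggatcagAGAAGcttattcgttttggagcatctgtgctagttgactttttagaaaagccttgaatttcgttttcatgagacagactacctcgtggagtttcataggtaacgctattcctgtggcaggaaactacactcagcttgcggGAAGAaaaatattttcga

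These held GAAGA 4 and 6 times and, on the other strand, 0 times each. The Kansl1l-facing peak had 75.8, 57.0 and 73.6 CPM in WT, 105 and 113 in EZH2 KO against 5.29 and 4.90 in SAFB DKO. In SAFB DKO it fell by 3.75 on the log2 scale from WT (edgeR adjusted p = 7.2e-09).

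A readable run of at least 150 bases existed for 492 members and for 5248 of the 11123 other antisense features tested, those outside the submitters' filtered list. Purines made up a median 51.8% of the members' runs against 45.7% in the others, and adenine 27.6% against 19.4%. On the peak's strand GAAGA occurred 2.76 times per kb in members and 1.59 times in the others, and 67.3% of members' runs against 40.0% held at least 1 copy. On the opposite strand the figures were 2.01 and 4.34 per kb. In runs free of annotated untranslated regions (224 and 2925) the members had 2.54 copies per kb on their own strand and 2.47 on the other, and the other features 1.40 and 5.41. Members' runs were longer, with a median of 496 against 326 bases, which bears on the share with a copy but not on the rate per kb. Readable runs lie over annotated exons and so leave out most peaks inside introns. Among the 492 members the purine share and the log2 fold change in SAFB DKO against WT had Spearman's rho of -0.07, a description over peaks that share libraries.

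Nearly every antisense peak was lower in cells without SAFB and SAFB2. Of 1375 peaks 1315 (95.6%) fell in SAFB DKO against WT and 0 rose, against 17.4% lower and 2.26% higher of all 192964 features tested (edgeR's quasi-likelihood test, Benjamini-Hochberg adjusted p under 0.05). The median change was -3.18 on the log2 scale, a 9.05-fold lower level, against -0.17 over all features. No member rose at an unadjusted p under 0.05 in edgeR, nor by DESeq2's adjusted p. Both SAFB DKO libraries were below every WT library in 1367 members, and both were above in 0, where 34.1% and 18.7% of all tested features separated in these ways. In a bulk precipitate, fewer cells holding an RNA, less of it per cell and less of it recovered cannot be told apart.

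Antisense peaks did not stand alone on the short list: in introns 5355 of 5453 peaks fell (median -3.34), and between genes 2428 of 2554 (-3.16). In exons 637 of 661 fell, with a median of -2.80. Antisense features outside the filtered list had a median of -0.59, with 2315 of 11123 lower and 121 higher. Those features had not been selected for WT counts as the members had.

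**Figure D1:**
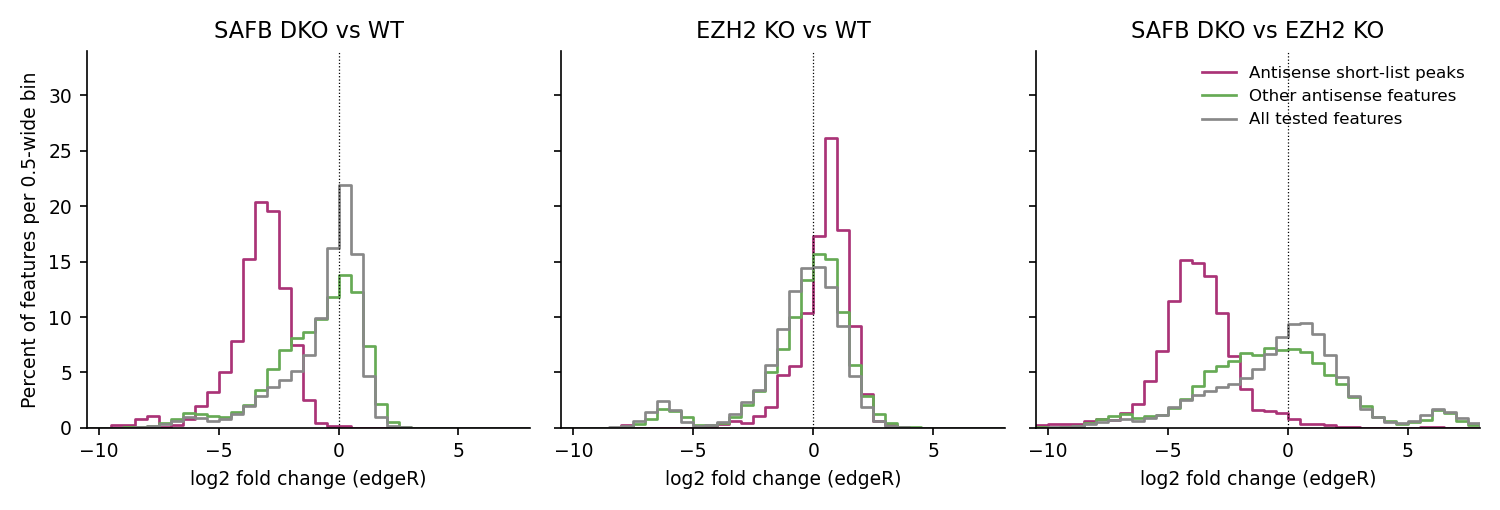
Distribution of log2 fold changes for the 1375 antisense short-list peaks, the 11123 other antisense features tested and all 192964 tested features, in 3 comparisons (x axis, log2 fold change; y axis, percent of features per bin of 0.5). The short-list peaks centre at -3.18 in SAFB DKO against WT, 0.62 in EZH2 KO against WT and -3.81 in SAFB DKO against EZH2 KO.

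Antisense peaks were also low in SAFB DKO when set against EZH2 KO. Of the members, 1245 (90.5%) were lower than in EZH2 KO and 2 higher, with a median of -3.81 or 14-fold, while 23.3% of all features were lower and 16.6% higher. This contrast tests directly whether the knockouts differed. Both SAFB DKO libraries were below both EZH2 KO libraries in 1265 members and above in 7, against 30.3% and 34.2% of all tested features.

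As a share of each library, the members held 1.14% of counts (95% exact Clopper-Pearson interval 1.132 to 1.141), 1.03% (1.022 to 1.031) and 1.08% (1.074 to 1.084) in WT. They held 1.60% (1.587 to 1.606) and 1.66% (1.648 to 1.665) in EZH2 KO, against 0.146% (0.144 to 0.1474) and 0.164% (0.1619 to 0.1659) in SAFB DKO. The 3 groups did not overlap. Mean shares were 1.08 ± 0.055% in WT (SD, n = 3), 1.63 ± 0.0427% in EZH2 KO (n = 2) and 0.155 ± 0.0128% in SAFB DKO (n = 2). The exact two-sided permutation p was 0.1 for each knockout against WT, the smallest that 3 against 2 allows, and 0.333 between knockouts, the smallest for 2 against 2. Without the 10 members with most reads the means were 0.893%, 1.33% and 0.130%.

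Within the short list the order of the group means was turned round. EZH2 KO overlapped WT there (exact permutation p = 0.3), while SAFB DKO lay above every other library (p = 0.1 against WT, exact permutation). Antisense peaks took 7.22%, 6.55% and 7.20% of short-list counts in WT, 6.61% and 6.06% in EZH2 KO against 7.91% and 7.73% in SAFB DKO. Antisense peaks thus made up slightly more of the short-list counts in SAFB DKO, where the whole short list was low.

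Each antisense peak can be set against the sense RNA of the gene it faces. Per 100 sense counts over the 1022 facing genes, members had 10.5, 9.38 and 10.6 counts in WT, 13.1 and 11.9 in EZH2 KO against 2.43 and 2.57 in SAFB DKO. The log2 ratio was lower by 2.02 in SAFB DKO than in WT (difference -2.02, exact permutation p = 0.1) and higher by 0.302 in EZH2 KO (p = 0.1, exact permutation). Taking only sense features that overlap a member, the ratio per 100 was 23.8, 21.5 and 26.1 in WT, 26.7 and 21.4 in EZH2 KO against 16.8 and 17.7 in SAFB DKO. With that narrower denominator the difference of SAFB DKO from WT was -0.461 and that of EZH2 KO from WT 0.0112. Malat1 alone gave 59.3% to 66.2% of the narrower denominator in WT and 30.3% and 29.2% in SAFB DKO. Without Malat1 and the peak facing it, the ratio to overlapping sense features was 67.1, 59.3 and 62.5 per 100 in WT, 62.8 and 59.6 in EZH2 KO against 22.9 and 24.4 in SAFB DKO. The difference of SAFB DKO from WT was then -1.41 (exact permutation p = 0.1), that of EZH2 KO from WT -0.0404 (exact permutation p = 0.7), and with the wider denominator that of SAFB DKO from WT was -2.40. Antisense counts in SAFB DKO were lower against sense counts in each of these versions, and the size depended on Malat1. Members were chosen on WT counts and the sense features were not, so each of these ratios favours a fall from WT. Against EZH2 KO the difference of SAFB DKO was -2.32, and -0.472 with the narrower denominator. Without Malat1 and the peak facing it, the latter was -1.37 (exact permutation p = 0.333 for each).

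**Figure D2:**
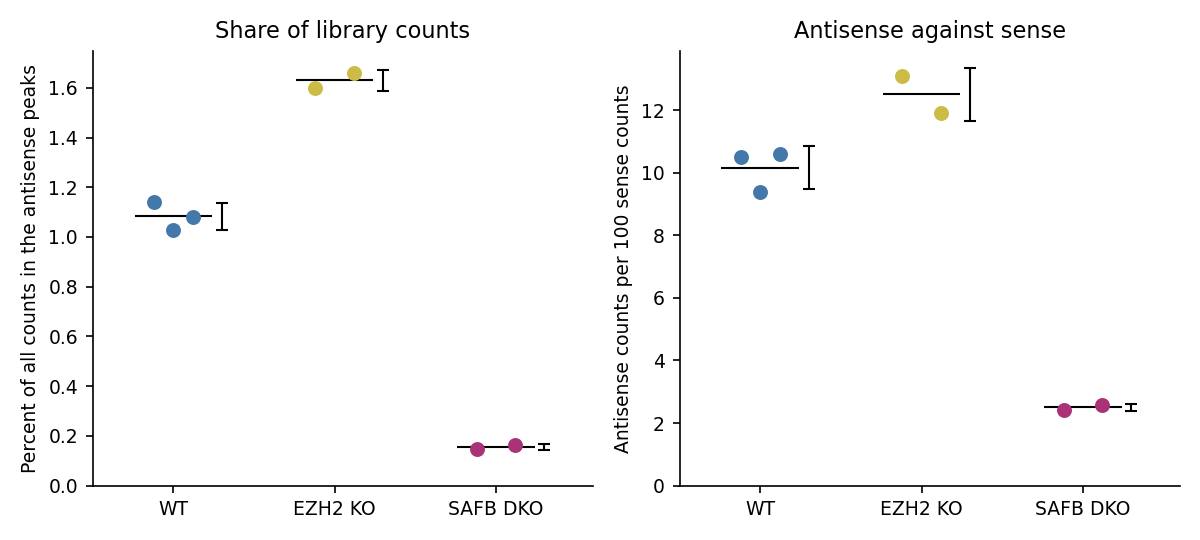
Share of all counts in the 1375 antisense peaks (left, percent) and antisense counts per 100 sense counts of the facing genes (right), 1 point per library, with lines at group means and bars of 1 SD. SAFB DKO libraries sit at 0.146% and 0.164% and at 2.43 and 2.57 per 100, below every WT and EZH2 KO library.

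The facing genes themselves gave 840 with enough sense counts to test. Of these 377 fell in SAFB DKO against WT (44.9%) and 96 rose (11.4%), against 33.8% and 15.8% of the 16352 genes tested on all sense features, with a median of -0.47. In EZH2 KO against WT 142 fell (16.9%) and 262 rose (31.2%), against 22.9% and 25.0% of all genes.

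Reads of the wrong strand would place sense RNA in an antisense peak, so the overlap with sense features was counted. Of the members 735 overlapped a feature of the other strand and 640 overlapped none. In 105 members WT had under 10 antisense reads per 100 overlapping sense reads, and in 422 it had over 100. Among the 640 with no overlapping sense feature 615 fell in SAFB DKO (median -3.23), and among the 105 lowest 101 fell (median -3.27). In EZH2 KO 178 of the 640 rose and 28 fell, and 15 of the 105 rose, where 7.50% of all features were higher and 8.07% lower. Sense reads outside the features of the count table were not counted, so the 640 may still lie opposite some. The part of wrong-strand reads was not tested beyond these counts.

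Among the most abundant members, the peak facing Malat1, an abundant long noncoding RNA of nuclear speckles, lies at chr19:5800993-5802654 (plus strand) within 2 kb of the Malat1 start and wholly over its exon. It had 519, 480 and 266 CPM in WT, 498 and 959 in EZH2 KO against 59.1 and 32.4 in SAFB DKO. Both SAFB DKO libraries lay below all others, and EZH2 KO overlapped WT. It had 1.46 antisense reads per 100 overlapping sense reads in WT, and Malat1 sense RNA itself changed by -3.50 in SAFB DKO (edgeR adjusted p = 1.9e-07) beside -3.20 ± 0.32 (SE) for the peak. Counts of both strands were lower at this site. Of the peak's bases 27.3% also lay in a gene of its own strand. Antisense reads per 100 overlapping sense reads ran from 1.09 to 2.63 over the libraries. Whether reads of the wrong strand make up this peak was not tested.

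The peak facing Gm6284, a processed pseudogene, spans chr8:43158935-43163457 (minus strand), the longest member. Its levels were 314, 330 and 249 CPM in WT, 709 and 883 in EZH2 KO against 34.5 and 51.0 in SAFB DKO. The groups were fully separate, with EZH2 KO highest. The log2 fold changes were -2.80 (SE 0.19, edgeR adjusted p = 2.6e-08) in SAFB DKO and 1.42 (SE 0.17, adjusted p = 5.9e-05) in EZH2 KO. Sense reads of Gm6284 averaged 6.32 CPM in WT, so here the antisense strand carried most of the signal.

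Zfp202, which encodes a zinc finger protein, is faced by a pair of the most abundant peaks, at chr9:40197986-40200818 and chr9:40195413-40196298 (minus strand), neither touching an exon. The first had 262, 251 and 279 CPM in WT, 441 and 606 in EZH2 KO against 12.0 and 17.2 in SAFB DKO. The second had 105, 99.9 and 111 CPM in WT, 176 and 238 in EZH2 KO against 6.52 and 7.75 in SAFB DKO. Both were separate between all 3 groups, with log2 fold changes of -4.18 and -3.88 in SAFB DKO against WT and 0.99 and 0.98 in EZH2 KO against WT. Zfp202 sense RNA was 14.3 CPM in WT and also fell in SAFB DKO, by 2.07.

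A peak in Has3, a hyaluronan synthase gene, begins 455 bases after the end of Chtf8, which encodes a clamp loader subunit and points the other way (chr8:106879640-106883408, minus strand). It had 181, 181 and 175 CPM in WT, 421 and 519 in EZH2 KO against 16.4 and 20.8 in SAFB DKO. WT libraries were nearly equal, and neither knockout overlapped them. The changes were -3.27 (SE 0.17, edgeR adjusted p = 4.3e-09) and 1.39 (SE 0.14, adjusted p = 2.4e-05).

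The peak in Mast1, a microtubule-associated kinase gene, overlaps the end of Dnase2a, the lysosomal nuclease gene, by 33.0% of its bases (chr8:84922131-84924512, plus strand). Its WT levels were 173, 151 and 165 CPM, its EZH2 KO levels 188 and 254, and its SAFB DKO levels 13.5 and 17. SAFB DKO changed by -3.42 (SE 0.19) and EZH2 KO by 0.44 (adjusted p = 0.0752), which did not pass. Exonic Dnase2a RNA fell by 0.66 in SAFB DKO, far less than the peak after it.

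Eif2b5, the catalytic subunit gene of the translation factor eIF2B, ends 1153 bases before the peak facing Gm16618 (chr16:20510476-20513769, plus strand). That peak had 133, 110 and 142 CPM in WT, 142 and 218 in EZH2 KO against 9.90 and 11.5 in SAFB DKO. Its change in SAFB DKO was -3.58 (SE 0.22, edgeR adjusted p = 1.2e-08), while exonic Eif2b5 RNA rose by 0.80 (adjusted p = 0.00025). The peak and the gene before it thus changed in opposite directions.

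The peak in Sfi1, a gene for a centrin-binding protein of the centrosome, had 107, 81.8 and 95.6 CPM in WT, 155 and 169 in EZH2 KO against 19.1 and 22.9 in SAFB DKO (chr11:3135865-3139004, plus strand). Its change in SAFB DKO, -2.17 on the log2 scale, was the least negative of these 8 peaks.

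**Figure D3:**
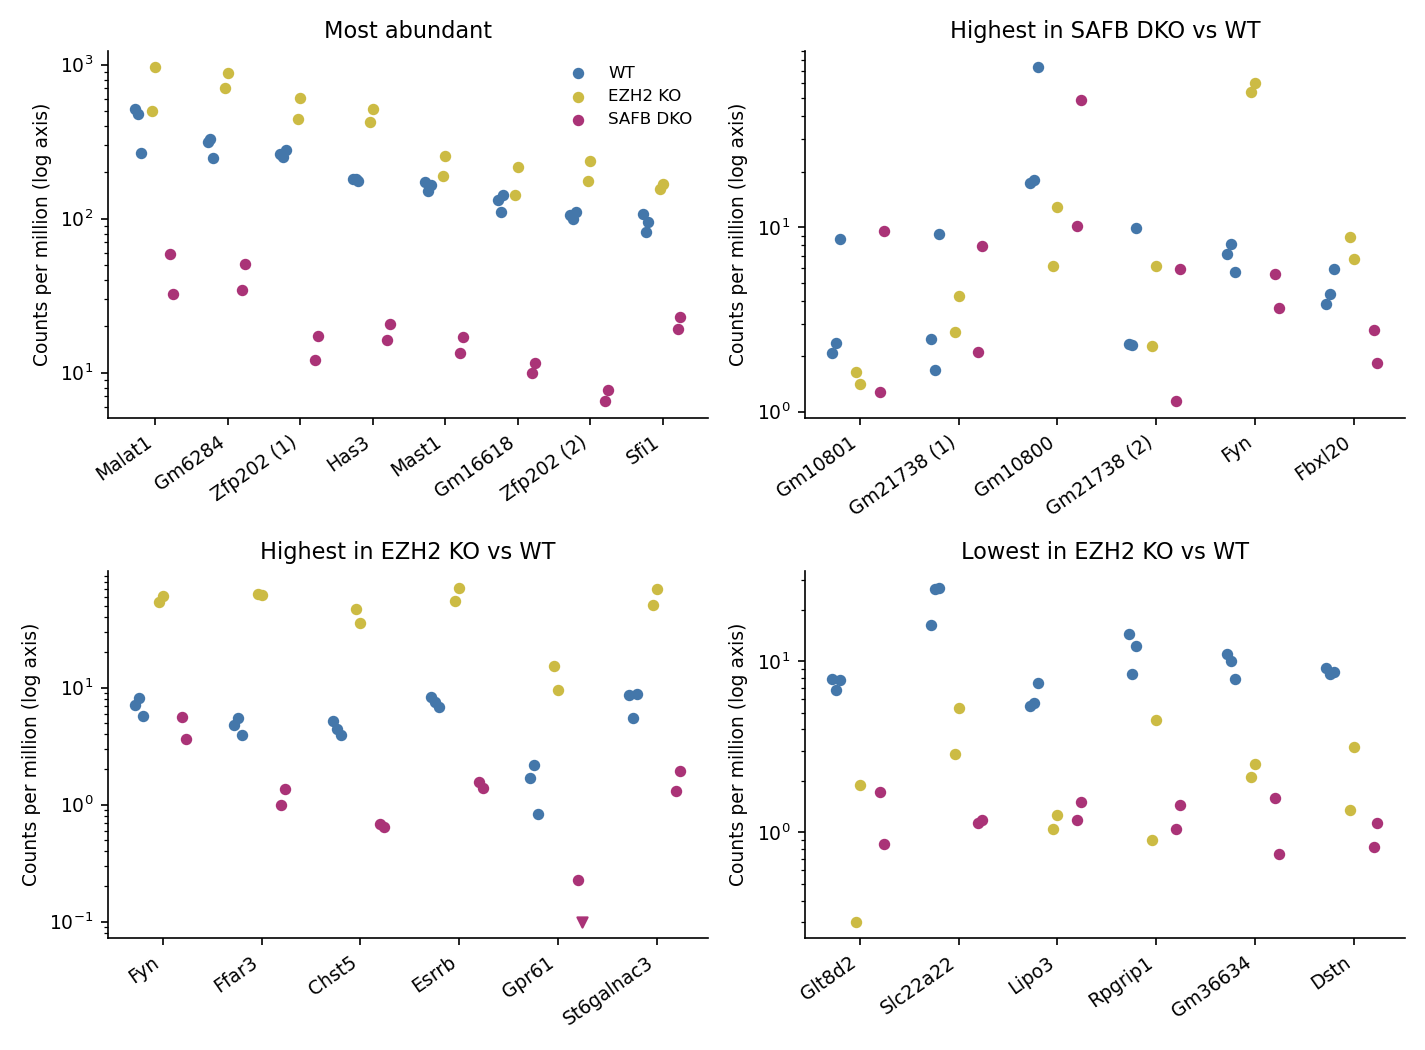
CPM (log axis) of 4 sets of antisense peaks, named by the gene they face, 1 point per library; a triangle drawn at 0.1 marks a library with no count. Among the most abundant peaks every SAFB DKO point lies below every WT point, and the peak facing Gm10800 has high points in WT replicate 3 (73.3) and SAFB DKO replicate 2 (48.9).

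The steepest falls left no read in either SAFB DKO library. Among members at or above the median level, the 6 with the most negative fold change face Rmdn2, Gm20275, A530053G22Rik, Gm3248, Trpm3 and Stau2. In Rmdn2, a microtubule regulator gene, the peak at chr17:79639021-79641427 had 3.13, 5.60 and 5.33 CPM in WT and 5.56 and 5.03 in EZH2 KO. Against a floor of 3 counts over the SAFB DKO group this is at least 63.2-fold higher in WT and at least 71.5-fold higher in EZH2 KO. In Trpm3, a cation channel gene, the peak at chr19:22945303-22946711 had 4.32, 3.20 and 3.18 CPM in WT and 4.66 and 8.18 in EZH2 KO, at least 48.2-fold above the floor in WT. In Stau2, which encodes a double-stranded RNA-binding protein, the peak at chr1:16330441-16332165 had 4.09, 2.78 and 2.66 CPM in WT and 5.86 and 11.8 in EZH2 KO, at least 42.9-fold above the floor in WT. The other 3 were at least 55.9-fold (Gm20275), 53.8-fold (A530053G22Rik) and 49.8-fold (Gm3248) above it. In all, 33 members had no SAFB DKO read. Setting these at their bounds left the median at -3.18. It could not have moved, because every member had 93 WT reads or more, which puts each bound below that median.

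At the other end, 6 members at or above the median level had the least negative fold changes and did not pass the test. Of these 4 are the repetitive peaks facing Gm10801, Gm10800 and Gm21738. The Gm10800-facing peak had 17.4, 18 and 73.3 CPM in WT, 6.16 and 12.9 in EZH2 KO against 10.1 and 48.9 in SAFB DKO. The Gm10801-facing peak had 2.07, 2.35 and 8.67 CPM in WT, 1.65 and 1.42 in EZH2 KO against 1.28 and 9.52 in SAFB DKO. In both, WT replicate 3 and SAFB DKO replicate 2 stood above the rest, and WT and SAFB DKO overlapped. Their log2 fold changes were -0.30 (SE 0.57) and 0.30 (SE 0.64). The pair facing Gm21738 had 9.14 and 9.87 CPM in WT replicate 3, 7.91 and 5.92 in SAFB DKO replicate 2 and 4.25 and 6.13 in EZH2 KO replicate 2. At the second of them EZH2 KO replicate 2 was thus as high as SAFB DKO replicate 2, and the changes in SAFB DKO were 0.17 and -0.46. The peak in Fbxl20, an F-box protein gene, had 3.81, 4.33 and 5.90 CPM in WT and 2.78 and 1.83 in SAFB DKO (-1.01, adjusted p = 0.0509).

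The remaining peak, in the Src-family kinase gene Fyn (chr10:39500072-39502825, minus strand), had 7.17, 8.14 and 5.69 CPM in WT, 54.0 and 60.7 in EZH2 KO against 5.57 and 3.66 in SAFB DKO. Both SAFB DKO values lay below all WT values, yet the change of -0.60 (SE 0.25, edgeR adjusted p = 0.108) did not pass. In EZH2 KO the same peak rose by 3.03 (SE 0.23, edgeR adjusted p = 4.1e-06), while Fyn sense RNA changed by -0.12 (adjusted p = 0.567).

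In EZH2 KO against WT, more antisense peaks rose than fell. Of 1375 members 381 rose (27.7%) and 43 fell (3.13%), against 7.50% higher and 8.07% lower of all features, and the median was 0.62 or 1.53-fold, against -0.21 over all features. Both EZH2 KO libraries were above all WT libraries in 706 members and below all in 153, against 20.2% and 31.2% of all tested features. Among the other short-list peaks 2692 of 5453 rose in introns (median 0.97), 816 of 2554 between genes (0.76) and 401 of 661 in exons (1.04). Both knockouts were compared with the same WT libraries. Without EZH2 KO replicate 2 the count of falls was 148 and that of rises 309, with a median of 0.38, and leaving out WT replicates 1, 2 or 3 gave 230, 222 and 222 rises and 11, 16 and 12 falls. With column totals in place of the scaling the split was 298 higher to 71 lower.

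By level in WT, 257 of the 688 members at or above the median rose in EZH2 KO and 124 of the 687 below it. WT levels are part of this comparison, and a chance low WT level favours a rise. Of the 688 at or above the median over all 7 libraries 323 rose and of the rest 58, a split that the rises themselves help to set. The median level of a member was 3.20 to 3.68 CPM in the WT libraries, 4.96 and 6.45 in EZH2 KO against 0.411 and 0.431 in SAFB DKO. EZH2 KO libraries had the fewest counts in total, so low peaks were counted least precisely there. Members within 2 kb of the facing gene's start rose in 32 of 89 cases (36%). Those within 2 kb of its end rose in 73 of 207 (35.3%) and those in the body in 276 of 1079 (25.6%). Among all members 27.7% rose in EZH2 KO, and among all tested features 7.50%.

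The largest rise among members at or above the median level was in Ffar3, a receptor gene for short-chain fatty acids (chr7:30854822-30856296, plus strand, over 92.0% exon). It had 4.83, 5.51 and 3.97 CPM in WT, 63.4 and 62.0 in EZH2 KO against 1.00 and 1.35 in SAFB DKO. All groups were separate, with changes of 3.71 (SE 0.22, edgeR adjusted p = 4.1e-07) in EZH2 KO and -2.03 (SE 0.27, adjusted p = 3.5e-05) in SAFB DKO. Chst5, a carbohydrate sulfotransferase gene, is faced by a peak with 5.15, 4.42 and 3.92 CPM in WT, 46.8 and 36.0 in EZH2 KO against 0.684 and 0.646 in SAFB DKO (chr8:111890366-111891901, plus strand). It rose by 3.20 in EZH2 KO, and Chst5 sense RNA, at 1.80 CPM in WT, rose by 2.05.

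St6galnac3, a sialyltransferase gene, is faced by an intronic peak with 8.73, 5.51 and 8.77 CPM in WT, 50.7 and 69.4 in EZH2 KO against 1.32 and 1.94 in SAFB DKO (chr3:153457190-153459206, plus strand). It rose by 2.97 in EZH2 KO, beside a rise of 1.28 for the sense strand. A peak wholly over an exon of the orphan receptor gene Gpr61 had 1.70, 2.16 and 0.835 CPM in WT and 15.2 and 9.59 in EZH2 KO, also a change of 2.97 (SE 0.46).

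Esrrb, a nuclear receptor gene of the pluripotency network, is faced by 4 members, all within introns and on the minus strand. The most abundant, at chr12:86454509-86456239, had 26.5, 25.0 and 17.2 CPM in WT, 135 and 152 in EZH2 KO against 2.37 and 2.91 in SAFB DKO. Another, at chr12:86463901-86465394, had 8.32, 7.58 and 6.79 CPM in WT, 54.9 and 71.2 in EZH2 KO against 1.55 and 1.40 in SAFB DKO. In EZH2 KO these rose by 2.65 (SE 0.20, edgeR adjusted p = 3.5e-06) and 3.06 (SE 0.21, adjusted p = 2.2e-06), and the other 2 by 2.31 and 2.00. All 4 fell in SAFB DKO, with changes of -3.12, -2.35, -3.23 and -1.38. Esrrb sense RNA, 353 CPM in WT, changed by -0.25 in EZH2 KO (adjusted p = 0.108) and rose by 0.39 in SAFB DKO.

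Fewer members fell in EZH2 KO. Among members at or above the median level, the lowest with separate groups faces Glt8d2, a glycosyltransferase gene, and begins 4490 bases after the end of Tdg, the thymine DNA glycosylase gene (chr10:82655289-82656580, plus strand). It had 7.91, 6.82 and 7.78 CPM in WT, 0.301 and 1.89 in EZH2 KO against 1.73 and 0.861 in SAFB DKO, so that both knockouts lay below WT. Its change in EZH2 KO was -2.79 (SE 0.54, edgeR adjusted p = 0.00265), and exonic Tdg RNA fell by 1.15 there (adjusted p = 0.00591). In Slc22a22, an organic anion transporter gene, a peak with 16.4, 26.4 and 26.9 CPM in WT had 2.86 and 5.35 in EZH2 KO against 1.14 and 1.18 in SAFB DKO (chr15:57347511-57349845, plus strand). Its changes were -2.50 in EZH2 KO and -4.31 in SAFB DKO, both past the test.

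A 98-base peak in Lipo3, a lipase gene, had 5.52, 5.74 and 7.52 CPM in WT, 1.05 and 1.26 in EZH2 KO against 1.19 and 1.51 in SAFB DKO. Rpgrip1, a photoreceptor cilium gene, is faced by a peak that fell by 2.11 in EZH2 KO and begins 5792 bases after Supt16, a subunit gene of the histone chaperone FACT. Peaks facing Gm36634 and Dstn, the actin depolymerising factor gene, had changes of -2.07 and -1.97 there. Of these 6 peaks all fell in SAFB DKO against WT, with changes from -4.31 to -2.21, and between the knockouts only the Slc22a22-facing peak passed the test (-1.81, adjusted p = 0.00213).

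Without a single read in EZH2 KO were 3 members, facing Cul1, Kiz and Pdia4, which are named here because of their values. The Cul1-facing peak (chr6:47522526-47523786, minus strand) begins 6353 bases after the end of Ezh2, the deleted gene, which lies on the same strand. It had 2.21, 1.46 and 1.31 CPM in WT, 0 and 0 in EZH2 KO against 0.456 and 0.646 in SAFB DKO, so WT was at least 7.20-fold above the floor of 3 counts over EZH2 KO. Exonic Ezh2 RNA fell by 8.37 in EZH2 KO. The Kiz-facing peak, on another chromosome (chr2:146909705-146910855), had 1.24, 2.16 and 1.20 CPM in WT and 0.456 and 0.484 in SAFB DKO, at least 6.65-fold above that floor in WT. The Pdia4-facing peak, on the same chromosome as Ezh2 (chr6:47808931-47809049, plus strand), had 1.06, 1.41 and 2.30 CPM in WT and 0 and 0.108 in SAFB DKO. The first 2 peaks were the only members higher in SAFB DKO than in EZH2 KO (adjusted p = 0.0247 and 0.0350). That count was 0 with only those groups fitted and 10 without EZH2 KO replicate 2.

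Many members followed closely on the end of a gene of their own strand. Of 1375 members 727 (52.9%) lay within 10 kb after such an end, against 3761 of 11123 other antisense features (33.8%). The median distance was 8.51 kb in members and 21.2 kb in the others. Protein-coding genes preceded 599 of the 727. Of the 727 peaks 711 fell in SAFB DKO (97.8%, median -3.15), as did 604 of the 648 that lay farther away (93.2%, -3.21). In EZH2 KO 171 (23.5%) and 210 (32.4%) rose. Of all tested features 17.4% were lower in SAFB DKO and 7.50% higher in EZH2 KO. The genes before them were higher about as often as lower in SAFB DKO: of 493 testable genes 104 fell on their exonic features and 110 rose (median 0.11), against 18.4% lower and 21.4% higher of all 14450 genes so tested. In EZH2 KO the median of these genes was -0.28, and that of all such genes -0.30.

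**Figure D4:**
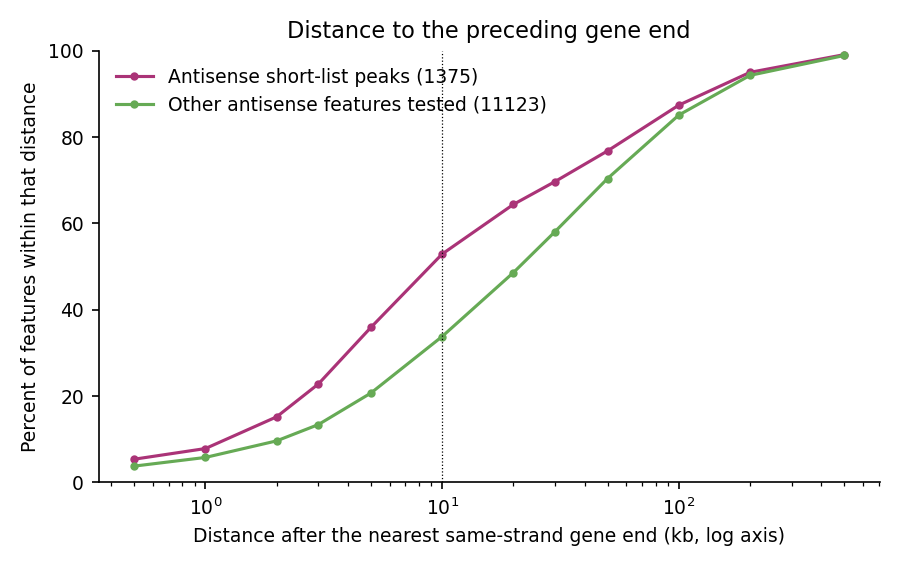
Percent of features lying within a given distance (kb, log axis) after the end of the nearest same-strand gene, for the 1375 antisense short-list peaks and the 11123 other antisense features tested. At 10 kb, marked by the dotted line, the curves stand at 52.9% and 33.8%.

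The 5 loci with most members are described by their summed counts. The largest is a run of 8 peaks facing Gab1, an adaptor of receptor tyrosine kinases, across chr8:80860876-80879657 (plus strand). Summed, it had 83.4, 79.6 and 81.2 CPM in WT, 149 and 199 in EZH2 KO against 7.94 and 8.88 in SAFB DKO. All 8 peaks fell in SAFB DKO, with changes from -4.67 to -2.69, and 5 rose in EZH2 KO, where the range was 0.54 to 1.57. The summed locus changed by -3.28 (SE 0.19, edgeR adjusted p = 9.3e-09) and 1.10 (SE 0.16, adjusted p = 3.5e-04).

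Aftph, a clathrin trafficking gene, is faced by 7 peaks across chr11:20688074-20720913 with 62.1, 65.1 and 53.7 CPM in WT, 116 and 136 in EZH2 KO against 3.83 and 3.71 in SAFB DKO. All 7 fell in SAFB DKO and 4 rose in EZH2 KO. Lncenc1, a long noncoding RNA known from naive embryonic stem cells, is faced by 5 peaks across chr13:97454310-97468761 (minus strand) with 46.1, 44.1 and 52.7 CPM in WT, 83.4 and 115 in EZH2 KO against 4.56 and 3.34 in SAFB DKO. Of these 5 fell in SAFB DKO and 3 rose in EZH2 KO.

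Each of these loci has a same-strand gene before it, and the remaining pair is given with that gene. In Crybg3, 6 peaks after Riox2, a ribosomal oxygenase gene, summed to 25.2, 21.1 and 26.3 CPM in WT, 47.2 and 54.9 in EZH2 KO against 1.82 and 1.45 in SAFB DKO (chr16:59492982-59501259, plus strand). In Neb, the nebulin gene of muscle, 5 peaks after Rif1, a regulator of replication timing, summed to 47.8, 36.6 and 54.8 CPM in WT, 33.5 and 94.7 in EZH2 KO against 2.87 and 6.19 in SAFB DKO (chr2:52138751-52144959, plus strand). At the Neb locus the EZH2 KO libraries lay on either side of WT, and the changes of its 5 peaks there ran from 0.05 to 0.59 (summed locus 0.47, adjusted p = 0.365). All 5 fell in SAFB DKO.

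Some listed genes of interest in embryonic stem cells were faced by a member. Of the 16352 genes tested on all sense features 840 were faced by one, and whether the lists differ from this was not tested. For comparison with the lists, 95.6% of all members fell in SAFB DKO against WT and 27.7% rose in EZH2 KO. Of all tested features 17.4% and 7.50% did so. Of 60 listed Polycomb targets only Pax6, an eye and brain transcription factor gene, had one (chr2:105694433-105696620, minus strand, 4407 bases after Elp4), with 3.95, 3.58 and 3.08 CPM in WT, 3.01 and 5.35 in EZH2 KO against 0.319 and 1.08 in SAFB DKO. The peak fell in SAFB DKO (-2.36) and overlapped WT in EZH2 KO (0.24, adjusted p = 0.771), whereas Pax6 sense RNA fell by 2.30 in EZH2 KO (edgeR adjusted p = 0.00104). Of 39 Polycomb complex genes Jarid2, a cofactor of Polycomb repressive complex 2, and Phc3, a subunit of repressive complex 1, were faced by 3 members. All 3 fell in SAFB DKO and 2, both in Jarid2, rose in EZH2 KO. The higher of these, at chr13:44916238-44916943, had 2.90, 3.34 and 3.13 CPM in WT, 7.22 and 7.55 in EZH2 KO against 0.912 and 0.323 in SAFB DKO.

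Pluripotency genes, 40 listed, were represented by Esrrb, Jarid2 and Prdm14 with 8 members. All 8 fell in SAFB DKO (median -3.14), where 95.6% of all members and 17.4% of all tested features fell. In EZH2 KO 6 rose (median 1.76), in Esrrb and Jarid2 only, where 27.7% of members and 7.50% of features rose. The pair in Prdm14, a germline and naive pluripotency factor gene, made up the other 2, with changes of -0.41 and 0.35 in EZH2 KO. With 46 imprinted genes listed, Blcap and Mest were faced by 1 member each. The Blcap-facing peak begins 4431 bases after Nnat, the imprinted neuronatin gene, and had 3.17, 2.82 and 1.57 CPM in WT, 11.9 and 12.4 in EZH2 KO against 0.867 and 1.56 in SAFB DKO. It rose by 2.26 in EZH2 KO (SE 0.36, edgeR adjusted p = 6.2e-04), and its change of -1.07 in SAFB DKO did not pass (adjusted p = 0.0777). The Mest-facing peak, after Copg2, had 3.95, 4.24 and 3.97 CPM in WT, 7.82 and 9.75 in EZH2 KO against 0.821 and 0.700 in SAFB DKO. It fell by 2.40 in SAFB DKO and rose by 1.11 in EZH2 KO.

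Neuronal channel, receptor and adhesion genes, 91 listed, gave 12 members facing 11 genes. In SAFB DKO 11 of these fell and 1, in Astn2, did not pass (-1.97, edgeR adjusted p = 0.0565), and in EZH2 KO 1 rose, in Csmd2. Among all members 95.6% fell and 27.7% rose in these comparisons, and among all tested features 17.4% and 7.50%. The most abundant, in Sorcs2, a neurotrophin receptor gene of the sortilin family, had 5.24, 5.74 and 10.8 CPM in WT, 13.7 and 12.3 in EZH2 KO against 0.319 and 2.48 in SAFB DKO.

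RNA-binding proteins of the nuclear matrix and SAFB family, 39 listed, were faced at Hnrnpl, a splicing regulator gene, and at Safb itself. The Hnrnpl-facing peak had 4.87, 4.94 and 4.02 CPM in WT, 16.7 and 13.5 in EZH2 KO against 0.593 and 1.72 in SAFB DKO. It rose by 1.71 in EZH2 KO and fell by 2.02 in SAFB DKO. The Safb-facing peak (chr17:56598076-56598465, minus strand) had 2.02, 2.35 and 0.470 CPM in WT, 5.41 and 4.88 in EZH2 KO against 0 and 0 in SAFB DKO. It lies inside a gene that was knocked out in SAFB DKO, and the labels do not state how far the deletion reaches.

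A single library set the level of a further member. The peak facing Ankmy2 (chr12:36172759-36174140, minus strand), named because of its values, had 0.414, 0.329 and 21.1 CPM in WT, so that WT replicate 3 alone held nearly all its reads. It was called lower in SAFB DKO (edgeR adjusted p = 0.0138).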

How the data were processed

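RIP-seq libraries of 7 cultures were analysed from the submitters' count table and short list. The deposited values are whole-number counts per stranded feature, made with featureCounts 2.0.3 with strand setting 2 on mm10, per the file headers and the submitters' processing notes; the aligner is not given in the sources used here. Columns pooling libraries, and 3 columns that matched no sample, were not used. Features were placed by GENCODE M21 on their strand.

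Comparisons used edgeR 4.0.16 (quasi-likelihood test, R 4.3.3), and 1 fit held all 7 libraries with their group as the only term. filterByExpr left 192964 features, all members among them. Scaling was by TMM over 170869 of these, namely those absent from the filtered list of 33671. Calls needed a Benjamini-Hochberg adjusted p under 0.05, and only called peaks are said to rise or fall. Genes were tested on summed features of 1 gene. Facing means lying on the opposite strand of a gene. Shares used exact Clopper-Pearson intervals (95%) and exact permutation tests. Such intervals, and the floors, reflect counting error alone, since PCR copies could not be told from molecules. Labels number both SAFB DKO clones alike, so they were numbered 1 and 2 by listing order.

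Named peaks were the 8 most abundant, the 6 lowest and 6 highest in SAFB DKO against WT, the 6 highest and 6 lowest in EZH2 KO against WT among called peaks with separate groups (these extremes only among members at or above the median level over the 7 libraries), the most abundant per gene list, and the 5 loci with most members. Members and lists were chosen with earlier results of these data known. Alternatives were DESeq2 1.42.0, other scalings and filters, the compared groups alone, summed loci, a stricter member rule, a replicate block and leaving out each library.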

Additional observations from a re-analysis of the deposited data

How the results depend on the processing

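In SAFB DKO against WT the fall of antisense peaks held in every setting run: without single libraries 1159 to 1364 peaks fell, with medians of -3.26 to -3.12, and 605 of the 610 members with a mean of at least 50 counts fell. The median was -2.96 with column totals, -2.93 with DESeq2 size factors and -2.95 in DESeq2. Column totals moved the median of all features by 0.22 there, -0.25 in EZH2 KO against WT and 0.47 between knockouts; less that median, members stood at -3.01, 0.83 and -3.90, against -3.0, 0.83 and -3.89 in the reported fit. In EZH2 KO against WT the falls numbered 71 with column totals (median 0.37), 16 with a mean of at least 50 counts (median 1.03, 390 of 610 rising) and 11 to 148 without single libraries, where 222 to 437 rose and medians ran from 0.38 to 0.71. Lower peaks made up 10.1% of calls, 32.4% without EZH2 KO replicate 2. Falls there numbered 49 with only those groups fitted. A lone library left by such an omission was assumed to vary like the other groups. The cause of these differences was not tested.

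SAFB DKO against EZH2 KO gave 4 higher peaks with TMM over all features, with DESeq2 size factors, in DESeq2 and with no filter on low counts, 5 with column totals, and 0 over peaks averaging 50 counts or more or with only those groups fitted. Medians were -3.59, -3.58, -3.59 and, with column totals, -3.35, and -4.28 over peaks averaging 50 counts or more, where 598 fell. Without single libraries 0 to 10 rose, 1144 to 1256 fell, and medians ran from -3.91 to -3.54. As a share of short-list counts the differences turned: 0.827 percentage points in SAFB DKO against WT, -0.653 in EZH2 KO against WT and 1.48 between knockouts.

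The log2 ratio of antisense to sense counts in EZH2 KO against WT, 0.302, turned to -0.0404 over overlapping sense features without Malat1 and the peak facing it, an alternative chosen after seeing the data.

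The replicate block, WT and EZH2 KO paired by number, left 23 falls and 323 rises (median 0.59); deviations of same-numbered libraries had correlations of 0.027 and 0.001, so these libraries share only a number. Of 1494 alternative values of single named peaks 1423 kept their call, 49 passed the threshold newly and 22 no longer passed. These counts compare calls, so a peak that passed in neither setting could change sign. The spread of the Gm10801- and Gm10800-facing peaks allows this. With 7050832 and 8353603 counts, EZH2 KO libraries limit what can be called among low peaks.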

Other observations

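Of 35 members facing annotated antisense RNAs 34 fell in SAFB DKO against WT (median -3.12) and 5 rose in EZH2 KO (median 0.64), where 95.6% of all members fell in SAFB DKO and 27.7% rose in EZH2 KO, and 17.4% and 7.50% of all tested features. Of the 20 that face processed pseudogenes 18 fell in SAFB DKO (median -2.78) and 11 rose in EZH2 KO (median 1.18). Members facing long intergenic noncoding RNAs numbered 91, of which 87 fell in SAFB DKO and 31 rose in EZH2 KO.

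A peak facing the microRNA gene Mir299b, in the microRNA cluster of the imprinted Dlk1-Dio3 domain, had 90.7, 105 and 79.4 CPM in WT, 157 and 170 in EZH2 KO against 12.4 and 16.8 in SAFB DKO (chr12:109708939-109711406, plus strand). Its log2 fold changes were -2.65 (edgeR adjusted p = 5.9e-08) in SAFB DKO and 0.84 (adjusted p = 0.00396) in EZH2 KO, with no overlap between the groups. The peak facing Gm26992, with Xist as the nearest same-strand gene before it, had 1.65, 1.84 and 2.30 CPM in WT, 1.5 and 0.472 in EZH2 KO against 0.0456 and 0 in SAFB DKO. It fell in SAFB DKO (-5.91, edgeR adjusted p = 3.0e-04). Both were named because of their values.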
